A study of Mus musculus with 24 samples.

Results

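The AP-1 and ATF transcription factor genes described here are Fos, Fosb, Fosl1, Fosl2, Jun, Junb, Jund, Batf, Batf3 and Atf3. Chromatin accessibility around these 10 genes was read from an ATAC-seq table in bone marrow-derived macrophages (BMDMs). In ATAC-seq a transposase cuts and tags open DNA, and a peak is a stretch where many tagged fragments pile up. A peak was a member when it overlapped the body of 1 of the genes or the 20 kb on either side, and each peak was given to the nearest gene of the set. By this rule 116 of the 184158 consensus peaks of the table were members, from 5 at Jun to 23 at Atf3, and no peak lay in 2 windows. The rule used position alone and no measured value, but it took its peaks from a consensus set merged over the libraries studied here.

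The 24 libraries came from 4 groups of 6 animals in a single experiment, and whether unstimulated and LPS cells shared an animal is not given in the sources used here: wildtype (WT) BMDMs of C57/B6/J mice and BMDMs of AhR-KO mice (B6.129-Ahr tm1Bra/J), each unstimulated or with LPS. AhR, the aryl hydrocarbon receptor, is activated by small molecules and then binds DNA, and the knockout is not limited to macrophages. All marrow was grown with GM-CSF at 10 ng/ml and TGF-β at 2 ng/ml in 10% FBS, which gives macrophages with traits of alveolar macrophages. LPS, a component of the bacterial cell wall that activates macrophages, was used at 97 EU/ml from day 6 for 24 h, and the calcium ionophore A23187 at 5 µM for 10 min. The labels carry this treatment text on all libraries, the unstimulated ones included, so whether unstimulated cells also received the ionophore was not told by them.

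AP-1 is a family of dimers. The Jun proteins (Jun, Junb, Jund) can pair with each other or with the Fos proteins (Fos, Fosb, Fosl1, Fosl2), and these dimers bind the palindrome-like AP-1 site TGACTCA. Batf and Batf3 lack a transactivation domain of their own, pair with Jun proteins and act with IRF factors at composite sites in lymphoid and dendritic cells. Atf3 is a stress-induced factor that restrains inflammatory genes in macrophages stimulated through Toll-like receptors. In macrophages Fos, Jun, Fosb and Atf3 are immediate early genes that respond to LPS and calcium within minutes to hours, whereas Jund is expressed broadly and Fosl1 and Fosl2 respond later. ATAC-seq reads open DNA at these genes and not their RNA or protein.

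Totals in peaks ran from 8.54 to 34.6 M counts per library. Levels are CPM, counts scaled to the total of the library, after TMM (trimmed mean of M values) normalisation, and are given as lowest, median and highest of the 6 libraries of a group. The peak over the start site of the targeted gene Ahr ran from 20.2 to 24.6 CPM in WT unstimulated, 18.99 to 22.2 CPM in WT LPS, 11.5 to 15.1 CPM in AhR-KO unstimulated and 11.9 to 16.8 CPM in AhR-KO LPS, so the libraries of the 2 genotypes did not overlap. Of 7 macrophage marker genes, 6 (all but Spi1) had a tested peak over the start site, as did all 6 alveolar macrophage markers, and 0 of 4 T cell and 1 of 4 B cell markers. The macrophage markers summed to 123.8 and 109.4 CPM in WT and 153 and 115 CPM in AhR-KO, and the alveolar macrophage markers to 39.9 and 28.98 CPM in WT and 51.1 and 31.3 CPM in AhR-KO (means, without, then with LPS). Pparg, Siglecf, Marco, Chil3 and Car4 were lower with LPS in both genotypes. Fabp4 was higher, at 1.63 and 1.70 CPM in WT and 2.47 and 2.82 CPM in AhR-KO. Chil3 was lower in AhR-KO, at 7.60 and 4.70 CPM in WT and 7.27 and 4.40 CPM in AhR-KO. Csf1r was higher with LPS, at 11.5 and 18.3 CPM in WT and 13.4 and 21.2 CPM in AhR-KO. Adgre1 stayed at 21.3 to 22.5 CPM, and Cd68, Itgam, Mertk and Fcgr1 were lower with LPS in both genotypes. Of 5 neutrophil markers 2 had a peak. S100a8 had means of 20.2 and 16.2 CPM in WT and 24.0 and 17.2 CPM in AhR-KO (without, then with LPS). Cxcr2 had 4.93 and 3.82 CPM in WT and 2.73 and 3.32 CPM in AhR-KO. Of 3 mast cell markers only Kit had such a peak, with group means of 11.1 and 13.96 CPM in WT and 4.79 and 5.92 CPM in AhR-KO (without, then with LPS), and Cpa3 and Ms4a2 had none. Of 4 dendritic cell markers 2 had a peak, Flt3 with means of 9.07 and 11.6 CPM in WT and 4.09 and 4.73 CPM in AhR-KO, and Zbtb46 with 21.6 and 17.99 CPM in WT and 25.1 and 15.8 CPM in AhR-KO (without, then with LPS). In a bulk library a shift in the share of cells of a type and a shift within each cell cannot be told apart, and the part of these markers in the results below was not tested.

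Of the peaks with an AP-1 site, sequences are shown for 6 that the results below return to for their change with LPS or genotype, from the GRCm38 assembly behind mm10, 5′ to 3′. Capitals mark the AP-1 site (TGACTCA, or TGAGTCA on the other strand) and, in the Batf stretch, the AhR core GCGTG, which overlaps the AP-1 site there. Each stretch holds 60 bases on either side of the site, apart from the Batf3 peak, which is shown whole.
Atf3 intron (chr1:191189988-191190114, plus strand): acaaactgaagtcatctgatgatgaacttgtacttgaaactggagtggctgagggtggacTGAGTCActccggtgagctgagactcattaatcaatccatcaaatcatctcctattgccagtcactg
Fosl2 downstream (chr5:32164322-32164448, plus strand): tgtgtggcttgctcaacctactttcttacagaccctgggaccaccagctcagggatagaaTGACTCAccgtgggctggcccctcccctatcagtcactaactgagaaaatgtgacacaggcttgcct
Jun downstream (chr4:95035630-95035756, plus strand): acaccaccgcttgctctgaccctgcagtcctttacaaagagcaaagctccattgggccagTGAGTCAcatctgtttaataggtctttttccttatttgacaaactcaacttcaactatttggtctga
Fosb upstream (chr7:19321612-19321738, plus strand): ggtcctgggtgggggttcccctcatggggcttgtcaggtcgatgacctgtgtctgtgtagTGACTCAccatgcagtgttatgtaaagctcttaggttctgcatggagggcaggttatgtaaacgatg
Batf downstream (chr12:85712558-85712684, plus strand): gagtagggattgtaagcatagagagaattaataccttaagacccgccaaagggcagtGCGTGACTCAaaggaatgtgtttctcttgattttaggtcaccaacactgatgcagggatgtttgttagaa
Batf3 upstream (chr1:191088806-191088972, plus strand): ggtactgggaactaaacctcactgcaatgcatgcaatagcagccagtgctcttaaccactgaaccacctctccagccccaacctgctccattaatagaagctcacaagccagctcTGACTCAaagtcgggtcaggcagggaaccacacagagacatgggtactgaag

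Searched on both strands, TGACTCA was found in 37 of the 116 member peaks (31.9%) and in 23.8% of all 184060 peaks on the main chromosomes, and GCGTG in 60 (51.7%) against 29.1%. Peaks differ in length, and longer ones hold more matches by that alone. The serum response element of the Fos promoter, to which serum response factor binds in immediate early genes, was found in 2 member peaks, over the start site of Fos and upstream of Junb, and in 0.0647% of all peaks. The cAMP response element TGACGTCA was found in 1 member peak, over the start site of Jund, and in 1.07% of all peaks. A classical NF-kB site was found in 0 member peaks and 0.574% of all peaks. A match is a run of letters and not a measured binding site.

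The start sites were open in all groups and changed little. A transcription start site (TSS) peak was found for 9 of the 10 genes. At Atf3 the most 5′ of its equally supported starts was not covered, and the nearest peak, chr1:191215972-191217424 in its intron at 615 bp, stands in for it. The Jun TSS peak had lowest, median and highest values of 128, 136 and 141 CPM for WT without LPS, 118, 129 and 139.8 for AhR-KO without LPS, 119, 122 and 135 for WT with LPS and 114, 116 and 131 for AhR-KO with LPS. The groups overlapped at this peak, and the log2 fold changes ran between -0.12 and -0.02 over all 5 comparisons described below.

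For Junb the values were 29.95, 31.95 and 36.6 CPM for WT without LPS, 34.02, 38.96 and 49.9 for AhR-KO without LPS, 38.9, 44.9 and 49.1 for WT with LPS and 43.98, 47.5 and 61.9 for AhR-KO with LPS, and for Jund 36.2, 40.5 and 43.97 CPM for WT without LPS, 42.01, 47.1 and 58.1 for AhR-KO without LPS, 42.2, 47.7 and 51.1 for WT with LPS and 43.5, 49.9 and 57.9 for AhR-KO with LPS. Fosl2 read 32.9, 37.02 and 39.7 CPM for WT without LPS, 38.2, 42.8 and 53.99 for AhR-KO without LPS, 36.1, 40.4 and 46.9 for WT with LPS and 35.7, 41.00 and 47.4 for AhR-KO with LPS. At Junb both LPS groups lay above all unstimulated WT libraries, and at Jund and Fosl2 all 4 groups overlapped, as they did at the TSS peaks of Fos, Fosb, Jun and Batf.

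**Figure D1:**
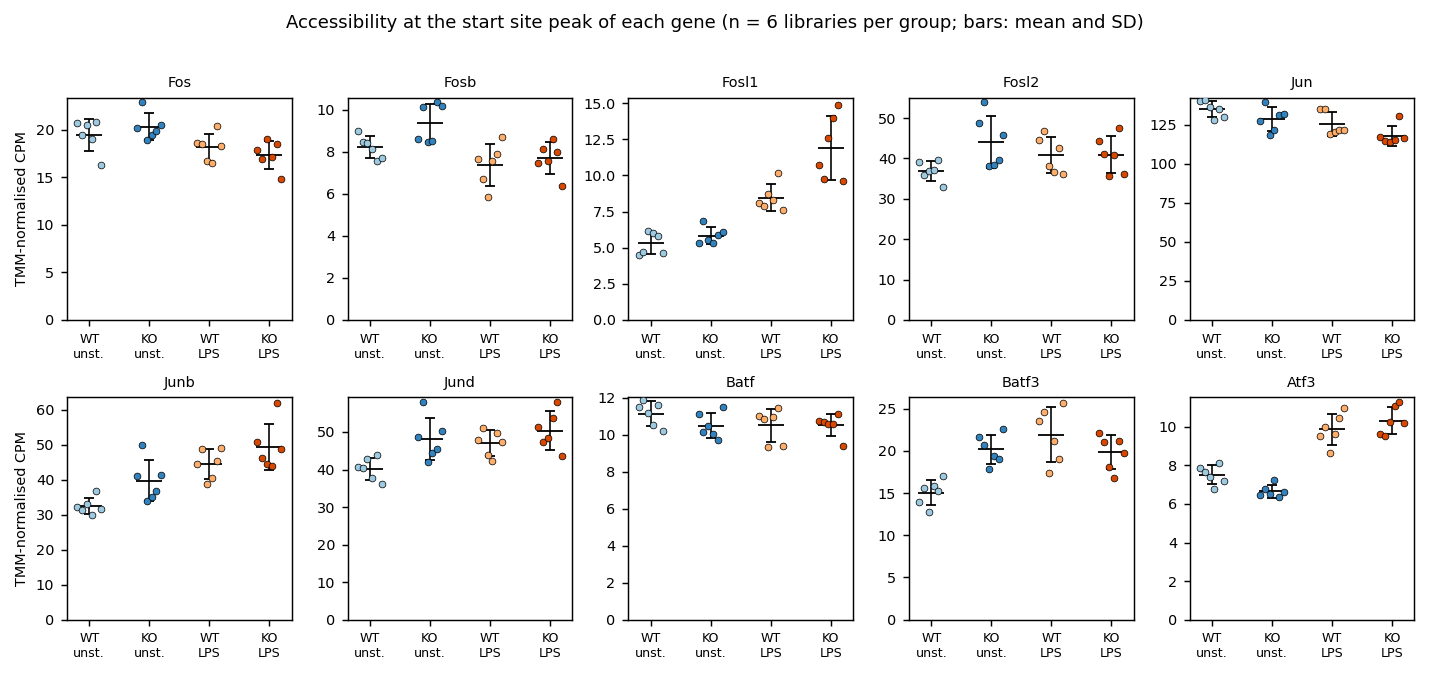
TMM-normalised CPM (vertical axes, from 0) at the start site peak of each gene in the 4 groups, with 1 point per library and the mean and SD of 6 libraries as bars; unst. is unstimulated and KO is AhR-KO. Jun stays between 114 and 141 CPM in all libraries, and Fosl1 is a gene whose LPS libraries stand above the unstimulated ones in both genotypes; for Atf3 the peak in the intron near the start is shown.

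The TSS peak of Fos (chr12:85473332-85474727), which holds the serum response element, had values of 16.3, 19.9 and 20.8 CPM for WT without LPS, 18.9, 20.01 and 22.9 for AhR-KO without LPS, 16.4, 18.3 and 20.3 for WT with LPS and 14.8, 17.5 and 19.01 for AhR-KO with LPS. Its range was narrow, with a log2 fold change with LPS of -0.10 ± 0.07, adjusted p = 0.229 in WT and -0.22 ± 0.07, adjusted p = 0.00505 in AhR-KO (± SE, edgeR quasi-likelihood test, Benjamini-Hochberg over 174193 peaks). The Fosb TSS peak read 7.56, 8.29 and 8.98 CPM for WT without LPS, 8.47, 9.37 and 10.3 for AhR-KO without LPS, 5.83, 7.60 and 8.70 for WT with LPS and 6.36, 7.78 and 8.59 for AhR-KO with LPS. Batf read 10.2, 11.3 and 11.9 CPM for WT without LPS, 9.71, 10.3 and 11.5 for AhR-KO without LPS, 9.36, 10.9 and 11.5 for WT with LPS and 9.40, 10.7 and 11.1 for AhR-KO with LPS, a difference of -0.082 ± 0.07, adjusted p = 0.34 with LPS in WT.

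A peak was called changed when the adjusted p was at most 0.05 and the fold at least 1.5 in either direction, the study's definition of a differentially accessible region. Of the 9 TSS peaks only that of Fosl1 was called, and only with LPS. Its values were 4.49, 5.24 and 6.14 CPM for WT without LPS, 5.30, 5.71 and 6.82 for AhR-KO without LPS, 7.63, 8.17 and 10.2 for WT with LPS and 9.61, 11.6 and 14.9 for AhR-KO with LPS. All LPS libraries lay above all unstimulated ones, with a log2 fold change of 0.68 ± 0.11, adjusted p = 2.88e-06 in WT and 1.03 ± 0.11, adjusted p = 1.57e-10 in AhR-KO. The Fosl1 difference between genotypes with LPS was 0.50 ± 0.10, adjusted p = 1.57e-04, under the fold threshold. Of all 11967 tested TSS peaks of protein-coding genes, 8.88% were called with LPS in WT and 14.3% in AhR-KO, 5.38% and 6.1% between genotypes without and with LPS, and 3.24% for the interaction.

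Among the 9 TSS peaks, that of Batf3 had the largest interaction, which compares the genotype effect between LPS and no LPS. It read 12.7, 15.4 and 16.99 CPM for WT without LPS, 17.9, 20.02 and 22.5 for AhR-KO without LPS, 17.4, 22.4 and 25.7 for WT with LPS and 16.8, 20.4 and 22.1 for AhR-KO with LPS. In WT it was higher with LPS by 0.54 ± 0.09, adjusted p = 1.74e-06, and in AhR-KO the difference was -0.026 ± 0.09, adjusted p = 0.806. WT libraries without LPS lay below both AhR-KO without LPS and WT with LPS. The interaction (AhR-KO against WT with LPS, minus the same without) was -0.57 ± 0.12, adjusted p = 0.00159, under the fold threshold, whereas it was called with relative log expression (RLE) size factors (-0.61) and with DESeq2 (-0.61). It was also called in 6 of the 24 fits that each left out 1 library, at most -0.63 without WT LPS replicate 3, and the LPS difference in WT passed the threshold without that library (0.60) and without WT unstimulated replicate 6 (0.59). The stand-in for the Atf3 start read 6.76, 7.54 and 8.14 CPM for WT without LPS, 6.34, 6.58 and 7.26 for AhR-KO without LPS, 8.64, 9.81 and 10.95 for WT with LPS and 9.53, 10.2 and 11.3 for AhR-KO with LPS and passed the threshold with LPS in AhR-KO (0.63 ± 0.08, adjusted p = 7.14e-09) but not in WT (0.40 ± 0.08, adjusted p = 3.43e-05). A second, shorter Atf3 start, the one RefSeq uses, lies in chr1:191182383-191183986, which at 45.6, 49.7 and 50.7 CPM for WT without LPS, 50.97, 58.04 and 64.9 for AhR-KO without LPS, 42.2, 46.3 and 50.3 for WT with LPS and 35.7, 41.9 and 47.6 for AhR-KO with LPS was called in none of the comparisons.

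LPS changed many peaks away from the start sites. With LPS in WT, 36 of the 115 tested member peaks rose and 9 fell, 39.1% in all. Among all 174193 tested peaks 47.0% were called, 25.4% higher and 21.6% lower. In AhR-KO 37 rose and 12 fell, 42.6% against 48.8% of all peaks (27.3% higher, 21.5% lower). The share of members called was below that of all peaks in both genotypes, with a larger part higher and a smaller part lower than among all peaks. The counts per gene given below are to be read beside these shares of all peaks. Of the peaks that rose, 32 were called in both genotypes, 6 fell in both, and none was called in opposite directions. The median log2 fold change of the members was 0.18 in WT and 0.07 in AhR-KO, beside -0.01 and 0.05 over all peaks. One member peak, near Fos, had too few counts to be tested.

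**Figure D2:**
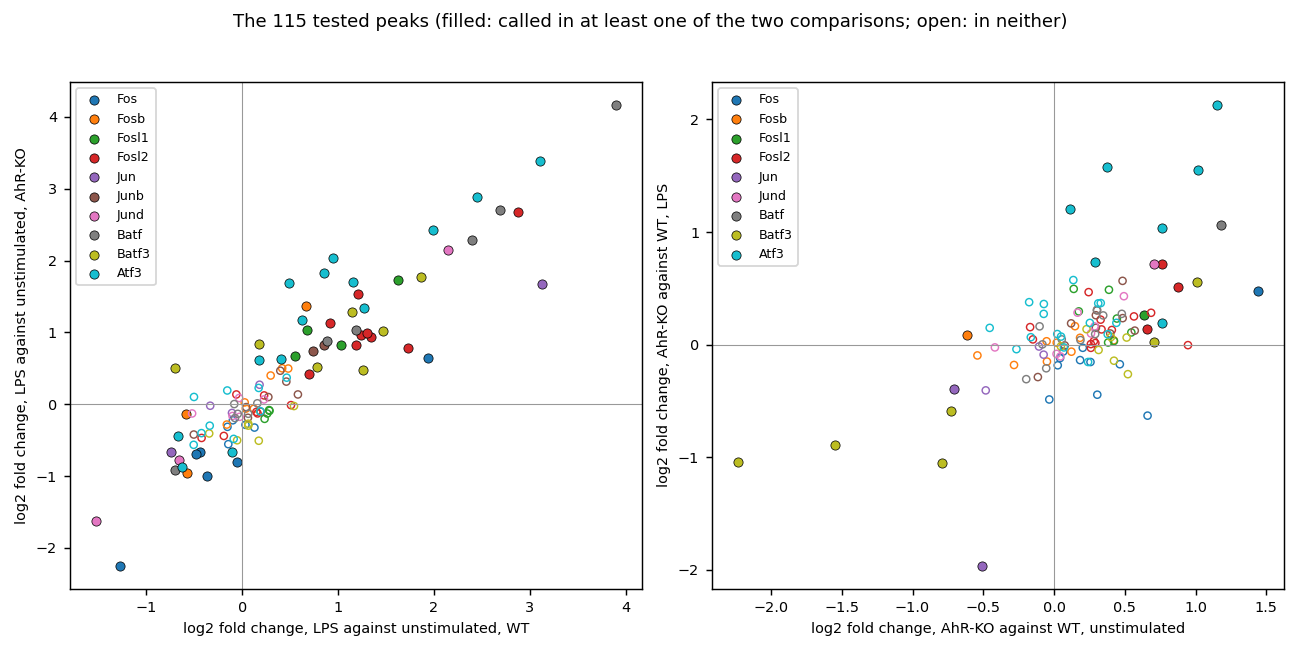
Log2 fold changes of the 115 tested peaks, with 1 point per peak coloured by gene. The left panel plots LPS against unstimulated in WT (horizontal) and AhR-KO (vertical), where the called points sit in the upper right and lower left apart from the Batf3 peak 9.44 kb upstream; the right panel plots AhR-KO against WT without (horizontal) and with LPS (vertical), where the 6 Atf3 peaks called with LPS lie at the top and 4 Batf3 peaks at the bottom left.

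Fosl2, Fra-2 in protein terms, had 9 of 16 tested peaks called higher with LPS in WT and 8 in AhR-KO, and 0 lower. The leading one, chr5:32162738-32164454, 27.8 kb downstream of the start and past the end of the gene, read 1.98, 2.22 and 2.83 CPM for WT without LPS, 1.76, 3.03 and 3.69 for AhR-KO without LPS, 14.8, 16.9 and 20.2 for WT with LPS and 16.3, 18.1 and 22.5 for AhR-KO with LPS. The LPS libraries stood apart from the unstimulated ones in both genotypes, by a log2 fold change of 2.87 ± 0.13, adjusted p = 2.93e-20 in WT and 2.67 ± 0.12, adjusted p = 1.62e-20 in AhR-KO. This is the Fosl2 stretch printed above. Its most open peak away from the TSS, chr5:32138441-32139879 over an exon, was called in no comparison.

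At Atf3 8 of 23 peaks rose with LPS in WT and 11 in AhR-KO, with 2 lower in each. The largest rise was in the intron at chr1:191189844-191190373, 27.9 kb from the 5′ start, where the values were 0.486, 0.931 and 1.33 CPM for WT without LPS, 1.41, 1.55 and 2.11 for AhR-KO without LPS, 5.81, 8.33 and 9.77 for WT with LPS and 15.4, 16.6 and 18.8 for AhR-KO with LPS. All 4 groups were apart there, and the log2 fold change with LPS was 3.11 ± 0.15, adjusted p = 4.09e-19 in WT and 3.39 ± 0.13, adjusted p = 1.91e-22 in AhR-KO. At the same peak AhR-KO was above WT without LPS (0.76 ± 0.19, adjusted p = 0.00143) and with it (1.04 ± 0.11, adjusted p = 8.63e-10), and the interaction was 0.28 ± 0.22, adjusted p = 0.439. The difference without LPS missed the threshold when all libraries were thinned to the smallest total (0.64, adjusted p = 0.0509).

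Batf had 5 of 11 peaks called higher and 1 lower with LPS in each genotype. The one 20.1 kb upstream, chr12:85666072-85667054, read 0.662, 0.756 and 1.32 CPM for WT without LPS, 0.787, 0.992 and 1.35 for AhR-KO without LPS, 4.82, 5.31 and 5.85 for WT with LPS and 5.37, 6.64 and 7.76 for AhR-KO with LPS. The ranges with and without LPS did not meet, and the log2 fold changes were 2.69 ± 0.15, adjusted p = 9.09e-18 in WT and 2.70 ± 0.14, adjusted p = 3.33e-19 in AhR-KO. A peak 12.95 kb upstream, chr12:85673092-85674340, fell instead, from 6.27 ± 1.03 CPM (mean ± SD, n = 6) to 3.88 ± 0.451 CPM in WT (-0.70 ± 0.11, adjusted p = 7.91e-07) and from 8.79 ± 0.744 to 4.67 ± 0.516 CPM in AhR-KO (-0.91 ± 0.11, adjusted p = 1.36e-09). The most open Batf peak, chr12:85704654-85706077 in an intron, stayed at 30.5 to 46.8 CPM over all libraries with no call. The largest fold of all members was at a short intronic Batf peak, chr12:85703568-85703772, chosen after its values were seen: its mean was 0.234 ± 0.255 CPM in WT unstimulated and 2.93 ± 0.552 CPM in WT LPS, with a log2 fold change of 3.90 ± 0.28, adjusted p = 1.89e-14, and 4.17 ± 0.27, adjusted p = 4.52e-16 in AhR-KO.

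Jun had 1 peak that rose and 1 that fell with LPS in each genotype. The riser, chr4:95035180-95036318, lies 16.5 kb downstream of the start and holds the printed AP-1 site. Its values were 0.349, 0.494 and 0.828 CPM for WT without LPS, 0.216, 0.407 and 0.593 for AhR-KO without LPS, 2.30, 5.29 and 8.02 for WT with LPS and 0.692, 1.28 and 2.44 for AhR-KO with LPS. The WT LPS libraries spread widely, and the AhR-KO LPS libraries lay mostly below them, with the lowest WT value under the highest AhR-KO value. The log2 fold change with LPS was 3.13 ± 0.32, adjusted p = 2.61e-09 in WT and 1.68 ± 0.38, adjusted p = 3.52e-04 in AhR-KO, and the genotype difference with LPS was -1.96 ± 0.27, adjusted p = 1.01e-06. The interaction there did not pass (-1.45 ± 0.54, adjusted p = 0.0693).

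Near Fos, in AhR-KO 5 of its 11 tested peaks fell with LPS and 0 rose, and in WT 1 fell and 1 rose. At chr12:85462361-85463155, 11.1 kb upstream, the values were 0.528, 1.02 and 1.28 CPM for WT without LPS, 2.14, 2.43 and 3.31 for AhR-KO without LPS, 0.166, 0.480 and 0.545 for WT with LPS and 0.251, 0.622 and 0.768 for AhR-KO with LPS. AhR-KO unstimulated libraries lay above all others, the difference from WT being 1.44 ± 0.21, adjusted p = 1.08e-06, and with LPS the peak fell by 1.28 ± 0.26, adjusted p = 6.5e-05 on the log2 scale in WT and by 2.25 ± 0.22, adjusted p = 2.73e-11 in AhR-KO. The most open upstream peak of Fos, chr12:85454887-85455969, read 30.01, 33.6 and 37.5 CPM for WT without LPS, 33.6, 39.6 and 42.6 for AhR-KO without LPS, 22.2, 24.4 and 28.6 for WT with LPS and 20.1, 24.6 and 28.3 for AhR-KO with LPS, and fell with LPS in AhR-KO (-0.67 ± 0.08, adjusted p = 2.25e-09), whereas in WT the change of -0.44 ± 0.08, adjusted p = 9.74e-06 was under the fold threshold.

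Fosb had 1 peak higher and 1 lower with LPS in each genotype, of 10. Its most open peak away from the TSS, chr7:19316273-19317084, 6.63 kb upstream, read 26.5, 29.02 and 29.6 CPM for WT without LPS, 33.4, 37.8 and 46.04 for AhR-KO without LPS, 17.5, 19.3 and 21.04 for WT with LPS and 18.9, 19.6 and 21.1 for AhR-KO with LPS. LPS libraries were below all unstimulated ones, with a log2 fold change of -0.96 ± 0.07, adjusted p = 1.81e-15 in AhR-KO, a call, and -0.57 ± 0.07, adjusted p = 1.91e-09 in WT, just under the fold threshold. The stretch 11.6 kb upstream, chr7:19321455-19321793, whose AP-1 site is printed above, rose: 6.09, 6.88 and 8.30 CPM for WT without LPS, 3.19, 4.67 and 5.43 for AhR-KO without LPS, 9.22, 11.3 and 12.3 for WT with LPS and 10.2, 11.4 and 13.9 for AhR-KO with LPS. Without LPS AhR-KO was lower (-0.62 ± 0.11, adjusted p = 3.11e-05) and with LPS the genotypes overlapped (0.083 ± 0.10, adjusted p = 0.514). With RLE size factors the difference without LPS was -0.55, under the fold threshold. It was likewise under it without WT unstimulated replicate 3 (-0.55) and without AhR-KO unstimulated replicate 2 (-0.54).

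Jund, the broadly expressed Jun protein, lost accessibility with LPS at chr8:70679045-70680292, 19.3 kb upstream and nearer to the start of Lsm4. Values there were 9.65, 12.2 and 13.8 CPM for WT without LPS, 10.3, 12.5 and 14.3 for AhR-KO without LPS, 3.62, 4.16 and 5.00 for WT with LPS and 3.30, 4.09 and 4.41 for AhR-KO with LPS. The LPS and unstimulated libraries did not overlap in either genotype, with log2 fold changes of -1.53 ± 0.10, adjusted p = 9.97e-16 in WT and -1.63 ± 0.10, adjusted p = 1.2e-16 in AhR-KO, and the genotypes overlapped in either state. Another peak 21.4 kb downstream, chr8:70719675-70721090, in Gm3336, also fell (-0.65 ± 0.09, adjusted p = 3.45e-08 in WT and -0.78 ± 0.08, adjusted p = 3.44e-10 in AhR-KO). The open peak 2.97 kb upstream of Jund, chr8:70695273-70696692, was called in no comparison.

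Junb had 2 of 10 peaks called higher with LPS in each genotype, 0 lower. Its most open peak, chr8:84979589-84981264, 1.71 kb upstream with the second serum response element, read 35.5, 39.8 and 44.9 CPM for WT without LPS, 52.4, 58.8 and 76.01 for AhR-KO without LPS, 54.9, 60.3 and 68.04 for WT with LPS and 57.8, 67.2 and 73.2 for AhR-KO with LPS. WT unstimulated libraries lay below those of all other groups. The differences were 0.58 ± 0.08, adjusted p = 6.36e-08 with LPS in WT, 0.14 ± 0.08, adjusted p = 0.111 with LPS in AhR-KO and 0.57 ± 0.08, adjusted p = 3.8e-07 for AhR-KO against WT without LPS. None of the 3 was called.

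**Figure D3:**
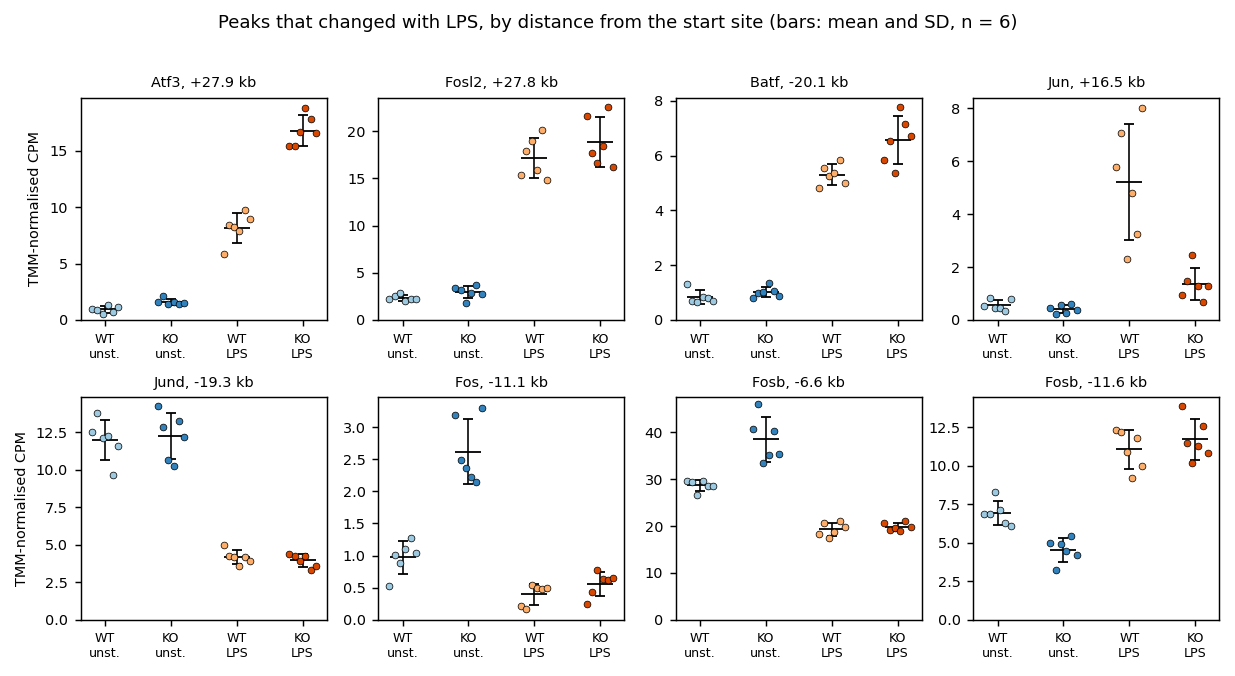
TMM-normalised CPM (vertical axes, from 0) at 8 peaks with a call for LPS, in 1 point per library with the mean and SD of 6 libraries; titles give the gene and the distance from its start, minus for upstream. The Atf3, Fosl2 and Batf peaks stand above the unstimulated libraries with LPS in both genotypes, the Jun peak reaches 2.30 to 8.02 CPM in WT LPS and 0.692 to 2.44 CPM in AhR-KO LPS, and the Jund, Fos and first Fosb peaks are lower with LPS.

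AP-1 sites were counted in the peaks by their call with LPS. Among the member peaks higher with LPS in WT, 19 of 36 (52.8%) held TGACTCA, against 2 of 9 lower ones and 16 of 70 not called (22.9%). Over all tested peaks with sequence the shares were 42.1% of 44216 higher, 10.7% of 37683 lower and 22.1% of 92207 not called. In AhR-KO 19 of 37 higher member peaks held it (51.4%) against 41.9% of 47561. Median lengths were 533.5 bp for the members higher in WT and 1032.5 bp for those not called. These counts are a description, and no test was made on them.

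Between genotypes fewer of these peaks were called. Without LPS 6 of 115 were lower and 12 higher in AhR-KO (15.7%), against 22.6% of all tested peaks (12.6% lower, 9.95% higher). With RLE size factors 5 were lower and 14 higher, and the balance over all peaks turned (11.1% lower, 11.9% higher). With LPS 5 were lower and 9 higher (12.2%), against 26.5% (13.1% lower, 13.4% higher). The medians were 0.26 and 0.08 without and with LPS, and -0.02 and 0.02 over all peaks. In both states, and in the same direction, 9 peaks were called. Members called higher were at Atf3, Batf, Batf3, Fos, Fosl1, Fosl2 and Jund, and lower ones at Batf3, Jun and Fosb. Here too the counts per gene are to be read beside the shares of all peaks.

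The Atf3 peaks called higher in AhR-KO with LPS lay 27.9 to 50.6 kb from the 5′ start. Atf3 is on the minus strand. Its intron peaks at chr1:191186471-191187201 and chr1:191189844-191190373 therefore lie upstream of the shorter RefSeq start, in chr1:191182383-191183986. Past the end of the gene, chr1:191165998-191168968 (50.6 kb from the 5′ start and 1181 bp from the start of Fam71a) read 4.37, 6.43 and 7.37 CPM for WT without LPS, 9.99, 11.8 and 19.9 for AhR-KO without LPS, 9.62, 10.3 and 12.9 for WT with LPS and 41.7, 44.99 and 55.6 for AhR-KO with LPS. AhR-KO with LPS stood above all other libraries, with a log2 fold change against WT of 2.13 ± 0.13, adjusted p = 4.25e-12. Without LPS the difference was 1.15 ± 0.16, adjusted p = 1.45e-06, and the interaction was 0.98 ± 0.21, adjusted p = 0.00196. The peak is 2971 bp long and holds 8 GCGTG matches, all in a repeat 43 bp long, and no TGACTCA, and 71.4% of all windows of that length on peak centres hold a GCGTG.

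Within the gene, chr1:191172342-191173949 over an exon read 2.18, 2.44 and 2.70 CPM for WT without LPS, 2.50, 3.04 and 4.22 for AhR-KO without LPS, 2.93, 3.20 and 4.66 for WT with LPS and 8.55, 9.45 and 13.96 for AhR-KO with LPS. The peak chr1:191186471-191187201 in an intron read 2.09, 2.25 and 2.94 CPM for WT without LPS, 2.19, 2.40 and 3.41 for AhR-KO without LPS, 4.19, 4.76 and 4.83 for WT with LPS and 9.18, 10.7 and 12.2 for AhR-KO with LPS. In both, AhR-KO LPS was above every other library while the unstimulated groups overlapped. The exon peak was higher in AhR-KO with LPS by 1.58 ± 0.13, adjusted p = 9.3e-12 and without it by 0.38 ± 0.16, adjusted p = 0.057, which missed the threshold. For the intron peak the values were 1.201 ± 0.10, adjusted p = 1.2e-11 and 0.12 ± 0.13, adjusted p = 0.515. Their interactions were 1.21 ± 0.21, adjusted p = 1.19e-04 and 1.09 ± 0.16, adjusted p = 2.17e-05. In all, 6 of 23 Atf3 peaks were higher in AhR-KO with LPS and 0 lower. That is 26.1% called, close to the 26.5% of all tested peaks, of which 13.4% were higher and 13.1% lower.

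**Figure D4:**
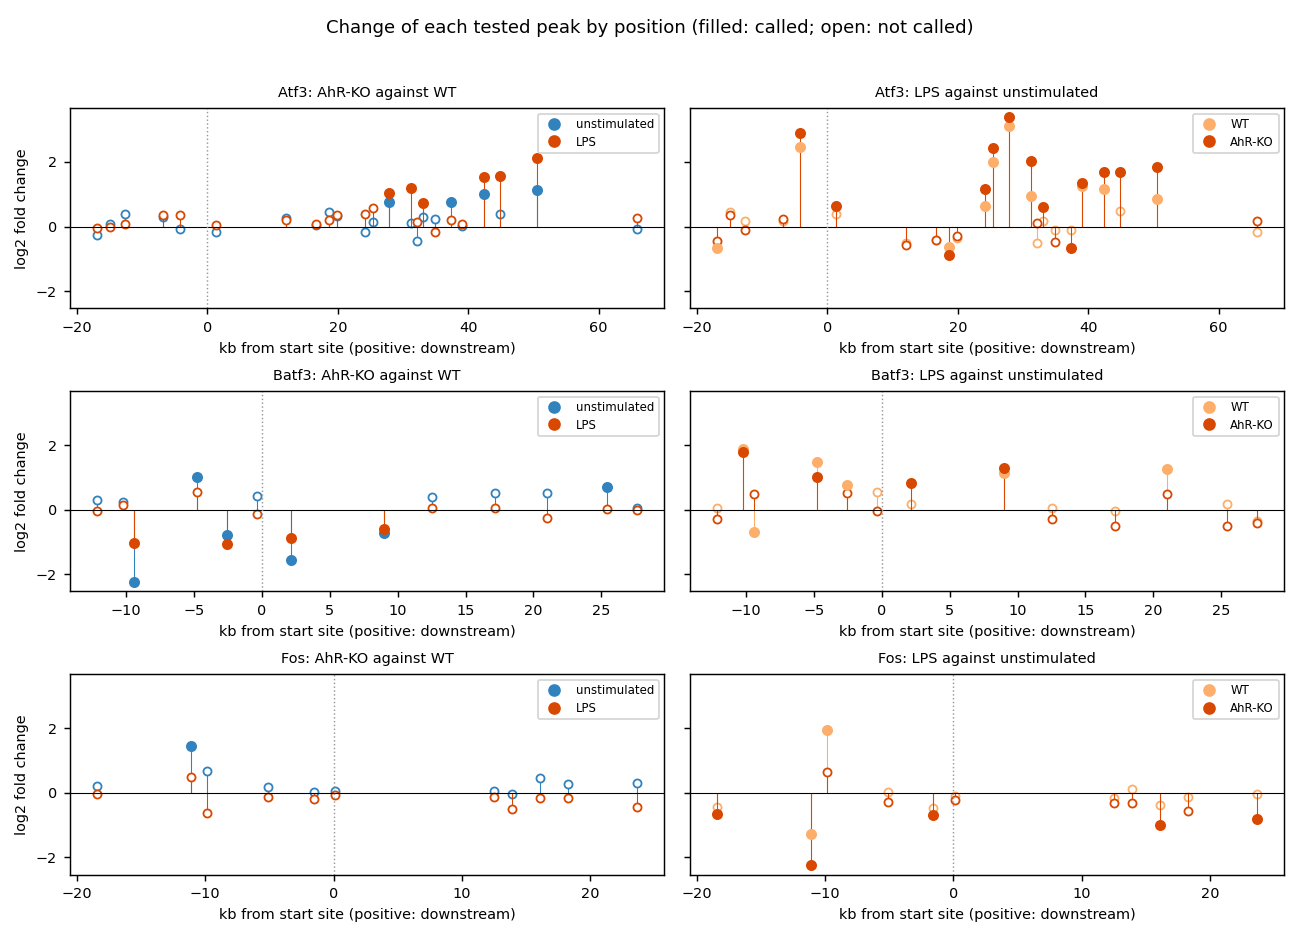
Log2 fold change (vertical axis) of each tested peak of Atf3, Batf3 and Fos against its distance in kb from the start site (horizontal axis, positive downstream, dotted line at the start), for AhR-KO against WT (left) and LPS against unstimulated (right). Filled points are called. At Atf3, measured from its 5′ start, the 6 points called between genotypes with LPS lie between 27.9 and 50.6 kb. At Batf3 the points called between genotypes (left) from -9.44 to 9.01 kb are mostly below 0.

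At Batf3 4 of 13 peaks were lower in AhR-KO both without and with LPS, between 9.44 kb upstream and 9.01 kb downstream of the start, and 2 were higher without LPS, 4.76 kb upstream and 25.4 kb downstream. The short peak 9.44 kb upstream, chr1:191088806-191088972, read 1.98, 2.89 and 3.66 CPM for WT without LPS, 0.263, 0.661 and 0.865 for AhR-KO without LPS, 1.35, 1.73 and 2.48 for WT with LPS and 0.649, 0.906 and 1.11 for AhR-KO with LPS. The WT libraries lay above the AhR-KO ones in either state, by a log2 fold change of AhR-KO against WT of -2.23 ± 0.21, adjusted p = 7.56e-11 without LPS and -1.04 ± 0.19, adjusted p = 3.05e-05 with it. LPS lowered it in WT (-0.70 ± 0.17, adjusted p = 6.13e-04), and the interaction was 1.19 ± 0.29, adjusted p = 0.0043. In the separate peak lists this stretch was called in only 1 WT unstimulated library, and in 0 libraries of each other group.

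Closer to the start, chr1:191095117-191096438 (2.55 kb upstream) read 6.63, 8.37 and 10.1 CPM for WT without LPS, 4.06, 4.52 and 5.55 for AhR-KO without LPS, 8.30, 14.4 and 18.3 for WT with LPS and 5.23, 7.17 and 7.90 for AhR-KO with LPS. AhR-KO was lower without LPS (-0.79 ± 0.16, adjusted p = 1.84e-04) and with it (-1.05 ± 0.14, adjusted p = 6.32e-07). In the gene, chr1:191100081-191100864 over an exon read 2.68, 4.58 and 6.74 CPM for WT without LPS, 1.48, 1.64 and 1.77 for AhR-KO without LPS, 3.59, 5.74 and 6.82 for WT with LPS and 2.58, 2.86 and 3.66 for AhR-KO with LPS, a difference of -1.55 ± 0.17, adjusted p = 4.55e-09 without LPS and -0.89 ± 0.15, adjusted p = 8.78e-06 with LPS. This peak was in the separate peak lists of 12 of 12 WT libraries and 0 of 12 AhR-KO libraries. The peak 25.4 kb downstream, chr1:191122853-191124694, was higher in AhR-KO without LPS, with 21.8, 24.7 and 27.2 CPM for WT without LPS, 37.2, 40.5 and 44.97 for AhR-KO without LPS, 23.7, 27.8 and 32.2 for WT with LPS and 26.5, 28.5 and 30.8 for AhR-KO with LPS. There the genotypes differed by 0.71 ± 0.07, adjusted p = 6.34e-11 without LPS and 0.028 ± 0.06, adjusted p = 0.756 with it. The Batf3 peak with the highest mean level, chr1:191085092-191087264, lies in the gene Nsl1 and was called in no comparison.

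Batf and Jun each had a peak that followed the genotype. At chr12:85712422-85712956, 26.02 kb from the Batf start and past the end of the gene, the values were 2.58, 2.81 and 3.36 CPM for WT without LPS, 5.93, 6.42 and 7.44 for AhR-KO without LPS, 2.35, 2.70 and 3.26 for WT with LPS and 4.93, 5.69 and 6.71 for AhR-KO with LPS. The AhR-KO libraries lay above all WT libraries, by 1.18 ± 0.11, adjusted p = 1.03e-10 without LPS and 1.06 ± 0.10, adjusted p = 3.66e-10 with it, and LPS made no called difference. For Jun, chr4:95062649-95064503, 11.4 kb upstream, read 5.96, 6.47 and 7.21 CPM for WT without LPS, 3.77, 3.96 and 4.30 for AhR-KO without LPS, 4.74, 5.10 and 5.76 for WT with LPS and 3.26, 3.97 and 4.47 for AhR-KO with LPS, lower in AhR-KO with a log2 fold change of -0.70 ± 0.10, adjusted p = 2.45e-07 without LPS, while with LPS the difference of -0.39 ± 0.09, adjusted p = 7.08e-04 was under the fold threshold.

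**Figure D5:**
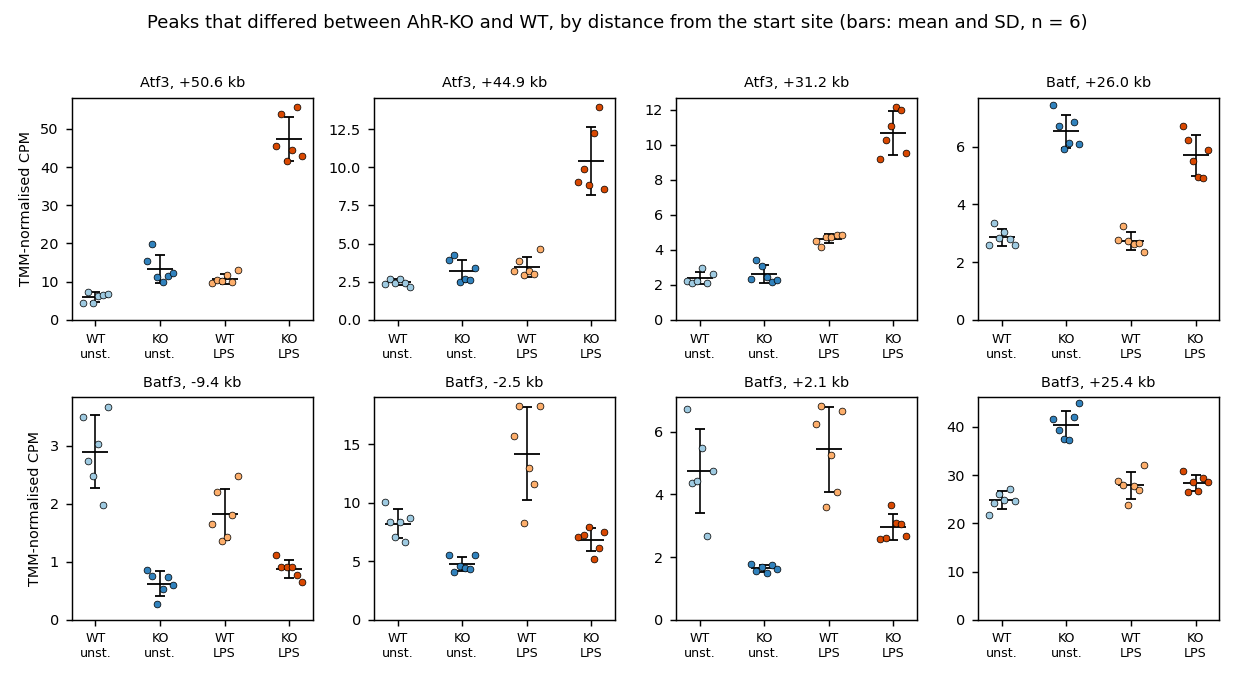
TMM-normalised CPM (vertical axes, from 0) at 8 peaks of Atf3, Batf and Batf3 with a call between genotypes, in 1 point per library with the mean and SD of 6 libraries; titles give the distance from the start site. The 3 Atf3 peaks are highest in AhR-KO LPS, at 41.7 to 55.6, 8.55 to 13.96 and 9.18 to 12.2 CPM, and the first 3 Batf3 peaks are lower in AhR-KO.

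The interaction was called at 11 of 115 member peaks, 4 lower and 7 higher (9.57%), against 10.4% of all tested peaks (4.58% lower, 5.83% higher). With RLE size factors in place of TMM the split was 7 lower and 5 higher, and the balance over all peaks turned as well (5.5% lower, 4.97% higher). Those named by the rule are the 3 Atf3 peaks above, 3 of Batf3, 2 of Fos and 1 of Fosb. For the Fos pair, chr12:85489108-85490816 read 13.9, 16.9 and 19.4 CPM for WT without LPS, 20.3, 23.1 and 25.3 for AhR-KO without LPS, 10.5, 12.2 and 15.7 for WT with LPS and 8.40, 11.99 and 12.8 for AhR-KO with LPS, and chr12:85496837-85498340 read 6.87, 8.83 and 11.6 CPM for WT without LPS, 8.95, 11.2 and 12.9 for AhR-KO without LPS, 7.56, 8.53 and 9.32 for WT with LPS and 4.83, 6.74 and 7.17 for AhR-KO with LPS. In AhR-KO both fell with LPS (-1.01 ± 0.10, adjusted p = 6.86e-11 and -0.80 ± 0.11, adjusted p = 4.92e-08), and in WT neither was called (-0.37 ± 0.10, adjusted p = 0.00186 and -0.050 ± 0.11, adjusted p = 0.71). The interactions were -0.64 ± 0.14, adjusted p = 0.00202 and -0.75 ± 0.15, adjusted p = 9.31e-04. At the Fosb peak the interaction was 0.70 ± 0.15, adjusted p = 0.00129, and at the Batf3 peaks 25.4 kb downstream and over the exon it was -0.68 ± 0.09, adjusted p = 3.12e-06 and 0.66 ± 0.23, adjusted p = 0.0454. The last was lost with RLE size factors (adjusted p = 0.0651) with DESeq2 (adjusted p = 0.0694) and after thinning (adjusted p = 0.0902), and the interaction 9.44 kb upstream of Batf3 was lost when all libraries were thinned to the smallest total (adjusted p = 0.147).

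Summed over the whole window, the loci moved less than their single peaks. Locus totals were tested over 19205 protein-coding genes, and a call here needs an adjusted p of at most 0.05 with no fold threshold. The shares of all loci given here count calls in either direction, so they give no measure of the balance of higher and lower. Without LPS 8 of 10 loci were higher and 1 lower in AhR-KO, where 60.9% of all loci were called, and with LPS 4 were higher and 1 lower (42.4%). LPS raised 6 loci and lowered 1 in WT (59.1% of all loci called), and raised 4 and lowered 4 in AhR-KO (70.5%). The Atf3 locus read 196, 201 and 207 CPM for WT without LPS, 219, 239 and 269 for AhR-KO without LPS, 209.5, 231 and 245 for WT with LPS and 295, 309 and 361 for AhR-KO with LPS. AhR-KO LPS was above all other libraries, by 0.46 ± 0.05, adjusted p = 8.87e-09 against WT LPS, and the interaction was 0.22 ± 0.07, adjusted p = 0.0141 (36.5% of all loci called).

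The Fos locus read 109, 121 and 130.4 CPM for WT without LPS, 125, 143 and 149.6 for AhR-KO without LPS, 92.8, 102 and 116 for WT with LPS and 84.8, 93.6 and 102 for AhR-KO with LPS. It fell with LPS by 0.24 ± 0.06, adjusted p = 7.92e-04 on the log2 scale in WT and by 0.58 ± 0.06, adjusted p = 5.66e-10 in AhR-KO, with an interaction of -0.34 ± 0.08, adjusted p = 0.00236. Junb, Fosl1 and Fosl2 rose with LPS in both genotypes. For Junb the totals were 213, 223 and 233 CPM for WT without LPS, 251, 287 and 343 for AhR-KO without LPS, 273, 301 and 333 for WT with LPS and 329.7, 342 and 399.9 for AhR-KO with LPS, and the log2 fold changes 0.44 ± 0.06, adjusted p = 2.68e-07 in WT and 0.28 ± 0.06, adjusted p = 1.11e-04 in AhR-KO. The Batf3 total rose in WT (0.21 ± 0.05, adjusted p = 9.61e-04) and fell in AhR-KO (-0.19 ± 0.05, adjusted p = 0.00223), an interaction of -0.40 ± 0.07, adjusted p = 1.99e-04. With a window of 5 kb the fall of Batf3 in AhR-KO turned to 0.0445 and the Fos interaction did not pass (adjusted p = 0.0792). With that window the higher AhR-KO totals without LPS were also lost at Batf3 (adjusted p = 0.0943) and Fos (adjusted p = 0.232). So were the rise of Batf with LPS in WT (adjusted p = 0.0968) and the lower Jun total in AhR-KO with LPS (adjusted p = 0.113). The lower Jun total in AhR-KO without LPS (-0.10 ± 0.04, adjusted p = 0.0437) was lost with RLE size factors (adjusted p = 0.427). The Fosb locus passed in no comparison, the nearest being 0.093 ± 0.05, adjusted p = 0.117 for AhR-KO against WT without LPS.

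The windows hold other genes. Of the 116 peaks, 8 lie over the start of another protein-coding gene (Rtn2, Ccdc85b, Fibp, Efemp2, Rnaseh2a, Gm49661, Hook2 and Gm3336). With 1 start counted per gene, the nearest start belongs to another gene for 31. For Atf3 only the 5′ start was counted, so the 31 include Atf3 peaks at or near its shorter start. The most open peak by the rule at Fosl1, chr19:5456456-5457953, is the start of Ccdc85b and was called in no comparison. Of these 8, 1 was called, the Efemp2 start in the Fosl1 window, which was higher in AhR-KO without LPS.

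Peaks had also been called in each library alone. Of the 116 member peaks, 63 overlapped a peak in the lists of all 24 libraries, 54.3% against 27.9% of all 184158 peaks, and 12 were in 6 of 6 lists of 1 group and 0 of 6 of another, 10.3% against 10.7%. The Atf3 intron peak 31.2 kb from the start was in 6 of 6 AhR-KO LPS lists and 0 of 18 others. The Fos peak 11.1 kb upstream was in 6 of 6 AhR-KO unstimulated lists and 0 of 18 others. A list depends on the depth of its library as well as on the level, and these counts have no test. The consensus peaks were merged over the libraries, so a peak listed in 1 group alone entered the table through that group. Such list counts, here and at Batf3 above, are therefore no separate support for the differences in level.

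Lists of related genes were counted the same way. Around 12 other bZIP genes (Atf, Creb, Maf and Nfe2 family and others) 246 peaks were tested. With LPS in WT 24 were lower and 93 higher (47.6% in all, against 47.0% of all tested peaks). Over all tested peaks 21.6% were lower and 25.4% higher in that comparison. The median log2 fold change of the list was 0.29, beside -0.01 over all tested peaks. With LPS in AhR-KO 27 were lower and 97 higher (50.4% against 48.8%). Between genotypes 27 fell and 22 rose in unstimulated AhR-KO cells (19.9% against 22.6%). In AhR-KO cells after LPS 31 fell and 38 rose, a share close to the 26.5% of all tested peaks. By the naming rule, a call in all 4 comparisons of 2 groups, Atf1, Atf5 and Creb5 are described. The Atf1 peak was higher with LPS by 2.44 in WT and higher in AhR-KO by 0.76 and 0.59 without and with LPS. The Atf5 peak rose by 2.06 with LPS in WT and was lower in AhR-KO, with log2 fold changes of -0.92 and -0.93 without and with LPS, as was the Creb5 peak, with -1.03 and -1.96. Around 18 genes of the MAP kinase pathway, whose kinases phosphorylate Jun and Fos proteins, 260 peaks were tested. Of these 30 were lower and 76 higher with LPS in WT (40.8%, against 47.0% of all tested peaks), and 39 and 78 in AhR-KO (45.0% against 48.8%). In AhR-KO against WT 22 were lower and 26 higher without LPS (18.5% against 22.6%), and 13 and 35 with LPS (18.5% against 26.5%).

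For each TSS peak the most similar TSS peak among 11966 others was found by Pearson's r of log2(CPM + 0.5) over the 24 libraries. The Junb peak was most like that of Trex1 (r = 0.953), Fosl1 like Gsn (r = 0.947) and Jun like Irf2 (r = 0.923). For Atf3 the intron peak that stands in for its start was most like the Dusp8 TSS peak (r = 0.955). Jund was most like Pim1 (r = 0.917), Fosl2 like Cdk2ap2 (r = 0.909), Fosb like Tm9sf1 (r = 0.866), Fos like Pdpr (r = 0.864), Batf3 like Icam1 (r = 0.842) and Batf like Slc48a1 (r = 0.773). The libraries share depth and group, so the values describe likeness across the 4 groups and nothing of shared control.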

How the data were processed

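Accessibility was measured by ATAC-seq in 24 BMDM libraries, 4 groups of 6. The authors aligned reads to mm10 with the nf-core atacseq pipeline, called broad peaks per library with MACS2 (lists deposited with the −log10 q-value of each peak) and deposited raw fragment counts in 184158 merged peaks, made with featureCounts 2.0.1, which gave a pair to each peak it overlapped with a fraction of at least 0.2. Replicates were not pooled.

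From the counts, filterByExpr by group left 174193 peaks. edgeR 4.0.16 (R 4.3.3) was used for testing: TMM scaling, robust quasi-likelihood fit to all 24 libraries, group as the only term, Benjamini-Hochberg over all peaks, two-sided. SE is the log2 fold change divided by the root of the F value. A call needs adjusted p ≤ 0.05 and fold ≥ 1.5. The script was tested on simulated data. Genes came from GENCODE vM21. The text names each gene's TSS peak, its most open other peak, and the 3 called peaks of smallest p per comparison and direction. Members, lists and tests were chosen with earlier results of these data known.

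Alternatives tried were RLE size factors, DESeq2 1.42.0, no filter, a replicate block, thinning, the libraries compared only, each library left out, a 5 kb window and other fold thresholds.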

Additional observations from a re-analysis of the deposited data

Results flagged for a closer look

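At 9 named peaks the genotype effect differed between LPS and no LPS by a test of the difference itself, the interaction, counting those past both thresholds of a call (adjusted p ≤ 0.05, fold ≥ 1.5; log2 scale, edgeR quasi-likelihood test, Benjamini-Hochberg over all peaks). At Atf3 it was 0.98 at 50.6 kb from the start (adjusted p = 0.00196), 1.21 at 44.9 kb (adjusted p = 0.000119) and 1.09 at 31.2 kb (adjusted p = 2.17e-05). At Batf3 it was 1.19 at the peak 9.44 kb upstream (adjusted p = 0.0043), 0.66 at the exon peak (adjusted p = 0.0454) and -0.68 at 25.4 kb downstream (adjusted p = 3.12e-06). At the Fos peaks 16.1 and 23.7 kb downstream it was -0.64 (adjusted p = 0.00202) and -0.75 (adjusted p = 0.000931). At the Fosb peak 11.6 kb upstream it was 0.70 (adjusted p = 0.00129). The call at the Batf3 exon peak was lost in 15 of the 24 fits that each left out 1 library (0.55 to 0.74). The Fos call at 16.1 kb was lost under the fold threshold without WT LPS replicate 3 (-0.57) and without AhR-KO LPS replicate 3 (-0.58). Most of the 9 peaks were named for their small interaction p, so their number is no measure of how common such peaks are. Among all tested members the interaction was called at 9.57%, against 10.4% of all tested peaks.

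In 8 of the 156 groups of 6 libraries at named peaks, 1 library lay far from the other 5 by Dixon's test, and chance alone gives about 1 in 20. Replicate 2 of AhR-KO without LPS read 2.11 CPM at the Atf3 peak 27.9 kb from the start (others 1.41 to 1.61) and 76.0 CPM at the upstream Junb peak (others 52.4 to 59.8). Replicate 5 of AhR-KO with LPS read 130.8 CPM at the Jun TSS (others 114 to 117) and 61.9 CPM at the Junb TSS (others 44.0 to 50.7). Replicate 6 of the same group read 9.40 CPM at the Batf TSS (others 10.6 to 11.1). Replicate 1 of WT without LPS read 1.32 CPM at the Batf peak 20.1 kb upstream (others 0.662 to 0.828), and replicate 3 read 26.5 CPM at the Fosb peak 6.63 kb upstream (others 28.5 to 29.6). Replicate 4 of AhR-KO without LPS read 44.8 CPM at the Batf3 peak in Nsl1 (others 46.7 to 47.6). Beyond the named peaks, libraries of a group were compared by a chi-square per peak, which measures how far the counts of 2 libraries differ and grows with depth. Replicate 3 of WT with LPS gave 8.38, 9.38 and 10.4 against replicates 1, 2 and 6 of its group. Pairs in the unstimulated groups gave 1.27 to 2.95, so the WT LPS group was the more uneven.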

How the results depend on the processing

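The count of member peaks called kept within 1.5 times its value without a filter on low counts, with only the libraries compared in the fit and with each library left out. Without one library, between 5 and 6 member peaks were lower and 12 to 15 higher in AhR-KO without LPS, 4 to 6 lower and 9 to 11 higher in AhR-KO with LPS, 7 to 10 lower and 36 to 39 higher with LPS in WT, 12 to 13 lower and 36 to 37 higher with LPS in AhR-KO, and 4 to 6 lower and 5 to 7 higher for the interaction. The interaction was lower at 7 peaks with RLE size factors and at 8 with DESeq2. With a window of 5 kb, which leaves fewer peaks, AhR-KO was lower at 3 without and 3 with LPS, LPS gave 2 lower and 21 higher in WT, 3 lower and 23 higher in AhR-KO cells, and 0 had a lower interaction. With no fold threshold, AhR-KO was higher at 48 without LPS, 9 were lower and 32 higher with LPS, LPS gave 23 lower in WT, 33 lower in AhR-KO cells, and 15 had a lower interaction. With a fold of at least 2, AhR-KO was lower at 2 and higher at 5 without LPS and lower at 3 with LPS, LPS gave 2 lower in WT and 3 lower and 24 higher in AhR-KO cells, and 0 had a lower and 3 a higher interaction.

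Locus totals lower in AhR-KO without LPS numbered 0 with RLE size factors and 0 with a window of 5 kb. With that window LPS in AhR-KO lowered 2 and the interaction was lower at 1, and the change with LPS in AhR-KO turned to 0.0445 at Batf3 and 0.0173 at Jund. The cause of these differences was not tested beyond the smaller number of peaks in the window. Signs turned at TSS peaks whose differences were near 0. At Batf, AhR-KO against WT with LPS was -0.00102 without the filter, -0.11 after thinning and -0.0202 with only the compared libraries, and -0.0294 to 0.0341 with a library left out. The Batf change with LPS in AhR-KO was -0.0392 with RLE size factors, -0.0310 with only the compared libraries, -0.0403 with DESeq2, and -0.0207 to 0.0329 with a library left out. For Batf3 LPS in AhR-KO it was 0.0311 after thinning and -0.0599 to 0.0194 with a library left out. For AhR-KO against WT with LPS, Fosl2 gave -0.0173 with only the compared libraries and -0.0397 to 0.0472 with a library left out, and Fosb -0.000216 to 0.11. The Jun interaction gave 0.0233 after thinning and -0.0471 to 0.00928 with a library left out.

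Replicate numbers are shared between groups, and nothing says that a number marks a shared animal or day. Deviations of same-numbered libraries correlated with r between 0.037 and 0.29 for WT without and with LPS, over 0.1 in 5 of 6, and 4 of 6 were best matched by their own number. In AhR-KO without and with LPS 2 of 6 were over 0.1, and 3 of 6 were best matched by their own number. Between genotypes 2 of 6 were so matched without LPS and 1 of 6 with LPS. The tests did not pair the samples, and whether libraries of 1 genotype share an animal was not settled by these values. The replicate block gave each number 1 term over both genotypes, so it cannot test a pairing within a genotype. With the replicate block, locus totals lower in AhR-KO with LPS numbered 3 and those lower with LPS in WT 2, and the Batf TSS change with LPS in AhR-KO was -0.00147. The other counts stayed within 1.5 times and no other named result changed its call or sign. Depth limits the weakest peaks, since the totals of libraries differed.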
